A study of Mus musculus with 8 samples.

Results

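The genes described here encode the ligands and receptors of axon guidance. They are semaphorins with plexin and neuropilin receptors, ephrins with Eph receptors, Slits with Robo receptors, and netrins with *Dcc* and the Unc5 receptors. The netrin-Gs are included as ligands. All these genes were chosen by gene name, and 73 of the 45706 listed genes matched. Of these, 70 had 10 or more estimated counts in at least 5 of the 8 samples and form the set described: 35 ligands, 33 receptors and 2 antisense RNAs of the *Plxna4* locus, *Plxna4os1* and *Plxna4os2*, which the name rule takes along. *Epha1* and *Efna4* reached 10 counts in 1 sample each and *Plxna4os3* had 0 counts in all samples, so these 3 were not tested. Just inside the filter were *Plxna4os1*, whose count in the sample ranked at the limit of the filter was 11, and *Epha2* and *Plxna4os2* with 14, and just outside were *Epha1* and *Efna4* with about 4.

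Ribosome-associated mRNA was isolated from parvalbumin-expressing (PV+) interneurons of the mouse somatosensory cortex (S1) by translating ribosome affinity purification, in which a tagged ribosomal protein of a chosen cell type is pulled down with the mRNA on it. PvalbFlp/+;Neurod6Cre/+ mice received an AAV (flox-fdio) at postnatal day 1 that encodes HA-RPL10a, the tagged ribosomal protein, and myc-hM3Dq, joined by a T2A sequence. Its human synapsin promoter, which is neuronal, drives both where Flp is active (cells that express *Pvalb*), and Cre removes the cassette in Neurod6-lineage pyramidal cells. At postnatal day 42 to 70, per the labels, 4 samples came from mice given CNO, which activates hM3Dq and thereby raises neuronal activity, at 1 mg/kg in 5 injections over about 48 h, and 4 samples from mice given vehicle on the same schedule. Both groups carried hM3Dq and both recombinase alleles, and each sample was pooled from 4 brains, so a replicate is a pool and not an animal. The comparison asks how ribosome-associated mRNA of the guidance genes differs after the raised activity of these cells.

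During development, semaphorins, ephrins, Slits and netrins steer growing axons by attracting or repelling them through receptors on the growth cone. In the adult cortex many of the same proteins remain on axons, dendrites and synapses, where Eph receptors and plexins act on the cytoskeleton through small GTPases and their regulators. Ephrins are bound to the membrane, so that both the ephrin-bearing and the Eph-bearing cell can signal, whereas class 3 semaphorins, Slits and most netrins are secreted.

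No guidance gene passed the test for a difference between CNO and vehicle. EdgeR's quasi-likelihood test called 0 of the 70 at an adjusted p under 0.05, a fold change above 1.5 and a mean TPM (counts per transcript length, scaled to a common total) above 1, and it called 0 of all 17495 genes tested, a percent called of 0. The lowest adjusted p of a guidance gene was 0.817. The likelihood ratio test of edgeR on robust dispersions called 0.0686% of all genes and the Wald test of DESeq2 called 0.0572%, and each called 0 guidance genes. At an unadjusted p under 0.05, 8 of the 70 (11.4%) were lower with CNO and 0 were higher, where 2.65% of all genes tested were lower and 1.44% were higher (4.09% in either direction). With robust dispersions 7 of the 70 were lower, against 2.97% of all genes. All 8 genes from the quasi-likelihood test were receptors: *Epha3*, *Epha4*, *Epha5* and *Epha7*, *Ephb1*, *Plxna2*, *Nrp2* and *Robo2*. The fitted log2 fold change was below 0 for 54 of the 70 (77.1%), against 49.6% of all genes tested, and its median was -0.11, against 0.0014 over all genes. The range ran from -0.56 for *Plxna4os1* to 0.35 for *Sema4g*, and no gene was beyond 1.5-fold. For 48 of the 70 the whole 95% interval lay within a 1.5-fold change, and the median standard error was 0.15 on the log2 scale.

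The samples held 44064161 to 49413273 counts, and 3 counts corresponded to 0.0607 to 0.0681 CPM (counts relative to the library total), a floor that covers counting error only. *Fos*, an activity-induced transcription factor gene that serves as the check of the treatment, was at 32.2 to 69.5 CPM with CNO and 11.3 to 15.8 CPM with vehicle, without overlap. Even for *Fos*, with a log2 fold change of 1.93, the adjusted p of edgeR's quasi-likelihood test was 0.0520, above the threshold, against 6.25e-20 in the likelihood ratio test on robust dispersions, which limits what 0 calls can show. Vehicle replicate 1 stood apart in cell type markers: *Pvalb* was at 99.7 CPM there and at 288 to 446 CPM in the other 7 samples. All 13 PV+ interneuron markers had a fitted value above 0 with CNO, and their summed level was 2787 to 4343 TPM with CNO and 1311 to 3445 TPM with vehicle, the lowest being vehicle replicate 1. Of 12 pyramidal cell markers, 11 were below 0, with 1417 to 1958 TPM with CNO and 1607 to 2293 TPM with vehicle. Below 0 were also 5 of 6 astrocyte markers (172 to 271 TPM with CNO and 217 to 323 TPM with vehicle), 6 of 6 oligodendrocyte markers (563 to 1020.1 and 777 to 999 TPM), 3 of 3 markers of oligodendrocyte precursors (10.1 to 15.4 and 12.2 to 15.9 TPM), 5 of 5 microglial markers (37.3 to 59.5 and 47.2 to 69.99 TPM) and 3 of 6 markers of other interneurons (444 to 480.1 and 425 to 563 TPM). Above 0 were 5 of 5 endothelial markers (22.9 to 68.1 and 35.6 to 53.2 TPM) and 2 of 3 mural markers (22.1 to 59.2 and 22.5 to 47.4 TPM). No marker was at 0 in all samples, so RNA of pyramidal cells and glia was present in the pulldown, and the part of these shifts in the guidance genes was not tested. Fewer cells of a type and less RNA per cell cannot be told apart in such samples. Values are therefore also given without vehicle replicate 1 and with a marker index (mean log2 CPM of the PV+ markers minus that of the pyramidal markers) in the model. The labels do not say whether the pools of a group came from separate litters or days, so p-values measure the spread between these pools.

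**Figure D1:**
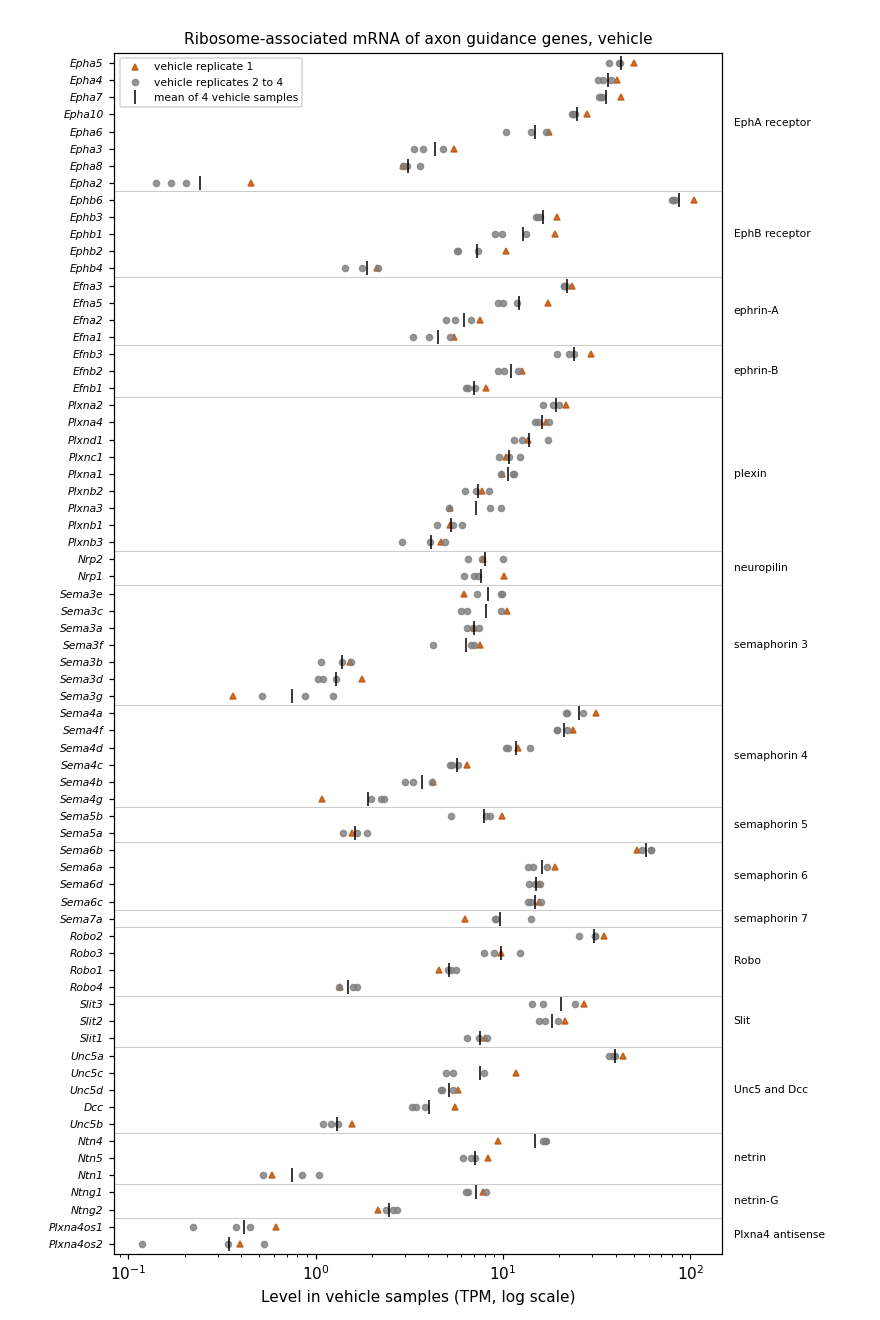
Level of each of the 70 guidance genes in the 4 vehicle samples (horizontal axis, TPM on a log scale), by family. Points are samples, the triangle is vehicle replicate 1 and the bar is the mean, from 87.1 TPM for Ephb6 to 0.241 TPM for Epha2.

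In vehicle samples the guidance genes were spread over a wide range of levels. Over all samples 65 had a mean TPM above 1 and 30 above 10, with a median of 6.99 TPM against 13.4 TPM over all genes tested. The highest vehicle level was that of *Ephb6*, an Eph receptor without kinase activity, at 87.1 ± 11.6 TPM (SD, n = 4), followed by the transmembrane semaphorin *Sema6b* at 57.6 ± 4.82 TPM. *Epha5* (42.5 ± 5.45 TPM), the netrin receptor *Unc5a* (39.6 ± 2.89 TPM), *Epha4* (36.1 ± 3.70 TPM), *Epha7* (35.6 ± 4.74 TPM) and *Robo2* (30.6 ± 3.78 TPM) came next. The neighbours from *Epha5* to *Epha7* each differed from the next by less than the larger of their SDs, so no order among them is drawn. Receptors and ligands were present at similar levels, with a median over genes of 7.99 TPM for the 33 receptors and 7.95 TPM for the 35 ligands. Under 1 TPM in vehicle were *Epha2*, *Ntn1*, *Sema3g* and both *Plxna4* antisense RNAs.

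The Eph receptors are the largest receptor tyrosine kinase family and bind ephrins on neighbouring cells. All 8 EphA and all 5 EphB receptors had a fitted value below 0, as did 49.6% of all genes tested. In edgeR's quasi-likelihood test 5 of the 13 were lower at an unadjusted p under 0.05, against 2.65% of all genes. Without vehicle replicate 1, 11 of the 13 were below 0 and 2 were lower at that p (1.31% of all genes). With the marker index these were 9 and 2 (2.02% of all genes). The summed EphA level was 122, 154, 126 and 111 TPM in CNO replicates 1 to 4 and 187, 155, 149 and 155 TPM in vehicle replicates 1 to 4. CNO replicate 2 lay within the vehicle range, the other CNO samples lay below it, and vehicle replicate 1 was highest. The group means were 128 ± 18.4 TPM with CNO and 161 ± 17.5 TPM with vehicle (SD, n = 4 each). Over all genes tested the median log2 fold change was -0.0626 on TPM values (log2 of TPM plus 1), against 0.0014 in the edgeR fit. Differences between TPM sums therefore include a downward shift with CNO that is seen over all genes. The median log2 fold change of the EphA receptors was -0.23. It was -0.19 without vehicle replicate 1 and -0.17 with the marker index, and all 8 remained below 0 in both.

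*Epha7* lies on chromosome 4 of GRCm38 from 28813131 to 28967499 and encodes a receptor of ephrin-A ligands. It had 39.4, 50.5, 38.9 and 38.6 CPM in CNO replicates 1 to 4 and 60.5, 51.9, 50.4 and 49.2 CPM in vehicle replicates 1 to 4. CNO replicate 2 overlapped with the vehicle samples, while the other 3 lay below all of them. The means were 41.9 ± 5.74 and 53.0 ± 5.11 CPM (SD, n = 4), 1.27-fold higher with vehicle. The log2 fold change was -0.34 (standard error 0.11; edgeR quasi-likelihood test, unadjusted p = 0.0121, adjusted p = 0.817), and two-sided exact permutation gave p = 0.0857. With the marker index the log2 fold change was -0.21. In edgeR's likelihood ratio test on robust dispersions the adjusted p was 0.591, the lowest of any guidance gene.

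*Epha4*, which binds ephrins of both classes, lies on chromosome 1 from 77367185 to 77515088. Its values were 51.7, 57.1, 54.9 and 44.7 CPM with CNO and 65.6, 56.5, 64.0 and 62.9 CPM with vehicle. The groups overlapped through CNO replicate 2 and vehicle replicate 2. Its log2 fold change was -0.26 (standard error 0.10; edgeR, unadjusted p = 0.0251, adjusted p = 0.817), and two-sided exact permutation gave p = 0.0571. *Epha4* and *Epha7* kept an unadjusted p under 0.05 without vehicle replicate 1 (0.0460 and 0.0335) and with the marker index (0.0453 and 0.0221) in the edgeR test.

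*Epha5*, on chromosome 5 from 84054761 to 84417382, is another receptor of ephrin-A ligands. It was at 61.8, 68.9, 69.4 and 64.1 CPM with CNO and at 82.2, 72.0, 71.5 and 81.0 CPM with vehicle. Every CNO sample lay below every vehicle sample. Such separation with CNO lower was found in 2 of the 70 genes (2.86%), *Epha5* and *Robo2*, against 1.63% of all genes tested, and with CNO higher in 0 of the 70 against 0.789%. The log2 fold change of *Epha5* was -0.22 (standard error 0.09; edgeR, unadjusted p = 0.0346, adjusted p = 0.817). Two-sided exact permutation gave p = 0.0286, the smallest that 4 against 4 samples allow and a value fixed by the separation. Without vehicle replicate 1 the log2 fold change was -0.18 and the unadjusted p in edgeR was 0.0704. With the marker index the log2 fold change was -0.16 (edgeR, unadjusted p = 0.0554).

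*Epha3*, on chromosome 16 from 63543534 to 63864175, was less abundant. It had 8.78, 8.35, 8.42 and 7.07 CPM with CNO and 12.9, 11.8, 8.62 and 9.20 CPM with vehicle. Vehicle replicates 1 and 2 were the highest, and CNO replicate 1 overlapped with vehicle replicate 3. On the log2 scale the difference was -0.38 (standard error 0.15; edgeR, unadjusted p = 0.0269) and was -0.20 with the marker index in the model (unadjusted p = 0.141). Two-sided exact permutation gave p = 0.0571. The other EphA receptors had fitted values of -0.25 for *Epha6*, -0.14 for *Epha10*, -0.11 for *Epha8* and -0.10 for *Epha2*. The last was near the detection floor, at 0.170 to 0.342 CPM.

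The promoters of *Epha7*, *Epha4*, *Epha5* and *Epha3* are shown because these genes had an unadjusted p under 0.05 in edgeR's quasi-likelihood test. None of them differed at the adjusted p. Each window runs from 250 bases before to 50 bases after the RefSeq start on GRCm38.p6, and lies at chr4:28812881-28813180 on the plus strand for *Epha7*, chr1:77515039-77515338 on the minus strand for *Epha4*, chr5:84417333-84417632 on the minus strand for *Epha5* and chr16:63864126-63864425 on the minus strand for *Epha3*. Capitals mark GC boxes, the letters GGGCGG on either strand.
Epha7: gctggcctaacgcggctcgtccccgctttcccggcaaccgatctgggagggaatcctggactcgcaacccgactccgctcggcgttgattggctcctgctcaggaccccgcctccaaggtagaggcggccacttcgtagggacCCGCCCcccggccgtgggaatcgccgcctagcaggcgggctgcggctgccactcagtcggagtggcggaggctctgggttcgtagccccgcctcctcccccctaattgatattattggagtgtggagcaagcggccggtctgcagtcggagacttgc
Epha4: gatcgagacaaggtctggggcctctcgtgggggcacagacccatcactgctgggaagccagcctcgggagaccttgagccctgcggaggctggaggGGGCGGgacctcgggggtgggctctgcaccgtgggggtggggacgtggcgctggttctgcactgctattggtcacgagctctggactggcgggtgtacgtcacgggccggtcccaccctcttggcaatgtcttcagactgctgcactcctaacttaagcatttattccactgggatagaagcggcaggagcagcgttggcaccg
Epha5: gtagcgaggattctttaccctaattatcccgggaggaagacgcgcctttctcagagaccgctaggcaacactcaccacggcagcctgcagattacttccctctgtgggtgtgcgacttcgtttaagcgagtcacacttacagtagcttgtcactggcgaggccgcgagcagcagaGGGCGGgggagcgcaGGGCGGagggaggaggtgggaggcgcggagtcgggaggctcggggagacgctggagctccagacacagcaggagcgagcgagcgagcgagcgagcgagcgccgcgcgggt
Epha3: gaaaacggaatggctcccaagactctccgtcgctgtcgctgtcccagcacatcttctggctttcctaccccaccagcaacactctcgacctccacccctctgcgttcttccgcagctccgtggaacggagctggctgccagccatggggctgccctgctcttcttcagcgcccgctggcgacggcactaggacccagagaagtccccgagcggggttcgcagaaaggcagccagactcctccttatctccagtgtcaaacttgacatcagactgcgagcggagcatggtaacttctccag
*Epha5* has 2 GC boxes, *Epha4* and *Epha7* have 1 each and *Epha3* has none. Of 74 windows of 58 guidance genes, 70.3% hold a GC box, against 59.3% of the 14983 windows of tested genes. The letters of a cyclic AMP response element (TGACGTCA) are in 1.35% of the guidance windows and 2.88% of the tested ones, and those of an AP-1 site (TGANTCA) in 4.05% and 5.29%. None of the 8 windows of the genes at an unadjusted p under 0.05 holds either. The letters of an EGR site (GCGNGGGCG), which overlap those of a GC box, are in 17.6% of the guidance windows and 10.0% of the tested ones. These are matches of letters and not binding sites.

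**Figure D2:**
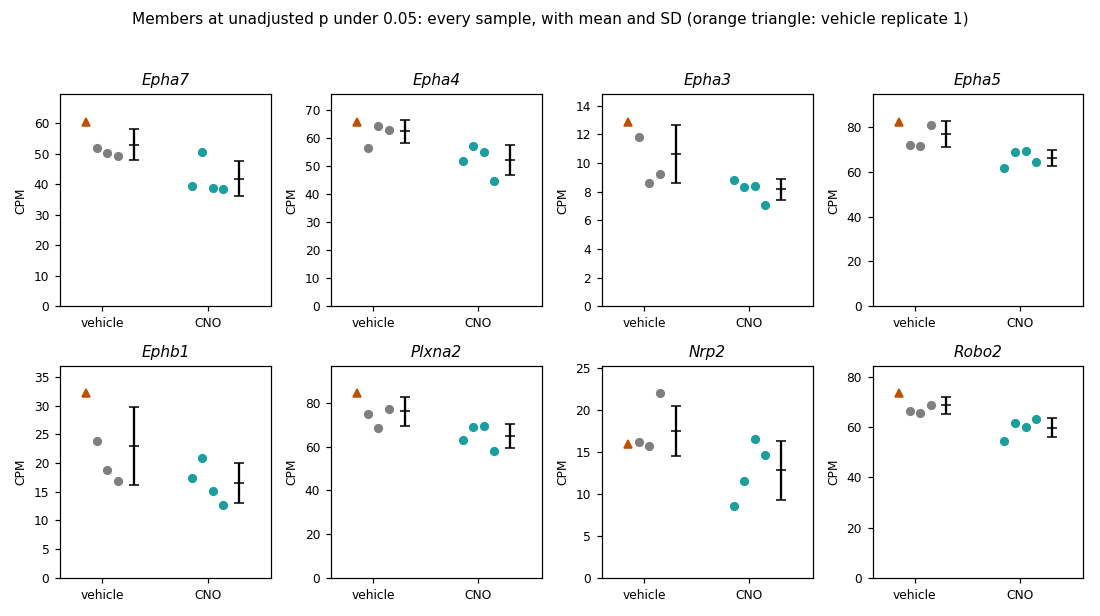
Level (vertical axis, TMM-normalised CPM) of the 8 genes at an unadjusted p under 0.05 in every vehicle and CNO sample, with the mean and SD beside the points. Vehicle replicate 1, the orange triangle, is the highest vehicle sample in 7 of the 8 genes, the exception being Nrp2, and only Epha5 and Robo2 separate the groups.

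Among the EphB receptors, which bind ephrin-B ligands, *Ephb1* had the largest difference. It had 17.4, 20.9, 15.2 and 12.7 CPM with CNO and 32.1, 23.8, 18.9 and 16.8 CPM with vehicle. The groups overlapped, and vehicle replicate 1 was well above all other samples. The log2 fold change was -0.47 (standard error 0.21; edgeR, unadjusted p = 0.0460) and moved to -0.26 without vehicle replicate 1 (edgeR, unadjusted p = 0.156) and -0.13 with the marker index (edgeR, unadjusted p = 0.27). The group means were 1.39-fold apart, and two-sided exact permutation gave p = 0.143.

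*Ephb6* had 116, 146, 131 and 104 CPM with CNO and 158, 128, 132 and 129 CPM with vehicle, and the groups overlapped widely. Its log2 fold change was -0.14 (standard error 0.12), -0.06 without vehicle replicate 1 and 0.0061 with the marker index. Of the 5 EphB genes, 3 remained below 0 without vehicle replicate 1 and 1 with the marker index.

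The ephrins, the ligands of these receptors, did not pass the test, and 0 of the 7 reached an unadjusted p under 0.05. Their fitted values lay between -0.19 for *Efna1* and 0.04 for *Efna3*, with 6 of 7 below 0, against 49.6% of all genes tested. *Efnb3*, a transmembrane ephrin and the highest of the ephrin-B genes, had 24.8 to 32.0 CPM with CNO and 26.4 to 37.7 CPM with vehicle. *Efna3*, the highest of the ephrin-A genes and tethered by a lipid anchor, had 17.9 to 21.5 CPM and 18.3 to 19.4 CPM. Both ranges overlapped. In *Efna3*, 10.5% of the 31-base stretches of its transcripts also occur in other genes, so its counts are less certain. Vehicle replicate 1 was above the 3 other vehicle samples in 7 of 7 ephrins. Without that sample 4 of 7 were below 0, and with the marker index 3 of 7. The median log2 fold change was -0.11 over all samples, -0.03 without vehicle replicate 1 and 0.02 with the marker index.

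Plexins are receptors of semaphorins, and neuropilins are the co-receptors that bind class 3 semaphorins. Of the 9 plexins, 7 had a fitted value below 0, and *Plxna2* was the member at an unadjusted p under 0.05. It lies on chromosome 1 from 194618218 to 194816869 and had 63.1, 68.9, 69.4 and 57.9 CPM with CNO and 84.4, 74.9, 68.5 and 77.2 CPM with vehicle. The groups overlapped at vehicle replicate 3. Its log2 fold change was -0.23 (standard error 0.10; edgeR, unadjusted p = 0.0365, adjusted p = 0.817), with -0.19 without vehicle replicate 1 (edgeR, unadjusted p = 0.0821) and -0.14 with the marker index (edgeR, unadjusted p = 0.0869). Two-sided exact permutation gave p = 0.0857 for *Plxna2*. Its promoter is shown because it holds the letters of 2 EGR sites (capitals, with the overlapping GC boxes). The RefSeq window lies at chr1:194619579-194619878 on the plus strand, and its start is 1611 bases from the start of the gene in GENCODE.
Plxna2: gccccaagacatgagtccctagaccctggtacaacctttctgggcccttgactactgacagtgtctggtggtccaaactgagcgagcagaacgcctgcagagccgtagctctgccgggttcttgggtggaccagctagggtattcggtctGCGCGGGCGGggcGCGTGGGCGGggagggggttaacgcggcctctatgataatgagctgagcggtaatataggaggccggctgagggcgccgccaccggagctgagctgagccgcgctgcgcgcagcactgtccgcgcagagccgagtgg
The other plexins ranged from -0.08 for *Plxna4* to 0.07 for *Plxna1*. *Plxna4* has antisense genes at its locus, and strand is not known. Its exons share 110 bases with *Plxna4os3*, which had 0 counts, and none with *Plxna4os1* or *Plxna4os2*. Exon reads of *Plxna4* and of the latter RNAs therefore differ in position. Reads of unspliced *Plxna4* RNA over the antisense exons could not be told apart.

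*Nrp2*, on chromosome 1 from 62703285 to 62818695, had 8.54, 11.5, 16.6 and 14.7 CPM with CNO and 15.9, 16.3, 15.8 and 22.0 CPM with vehicle. CNO replicate 1 was the lowest, vehicle replicate 4 was the highest, and CNO replicate 3 overlapped with the vehicle samples. On the log2 scale the difference was -0.45 (standard error 0.20; edgeR, unadjusted p = 0.0431, adjusted p = 0.817). Without vehicle replicate 1 the difference was -0.49 (edgeR, unadjusted p = 0.0385) and -0.52 with the marker index (edgeR, unadjusted p = 0.0294). With each sample left out in turn it ranged from -0.60 to -0.30, and the largest unadjusted p in edgeR was 0.145. Two-sided exact permutation over all samples gave p = 0.114. *Nrp1* had a fitted value of -0.26 and an unadjusted p of 0.159 in edgeR, with -0.14 without vehicle replicate 1 and -0.05 with the marker index.

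The 20 semaphorins showed no shared direction beyond a majority below 0 (13 of 20), and 0 of them reached an unadjusted p under 0.05. The summed level of the 20 was 194 to 239 TPM with CNO and 221 to 233 TPM with vehicle. In class 4, the transmembrane *Sema4a* (25.4 ± 4.57 TPM with vehicle) and *Sema4f* (21.1 ± 2.06 TPM) differed by less than the larger SD. For *Sema4a* the log2 fold change was -0.15 (standard error 0.16), -0.05 without vehicle replicate 1 and 0.06 with the marker index. In class 5, *Sema5b* had 7.17 to 10.5 CPM with CNO and 6.85 to 12.5 CPM with vehicle. In class 6, *Sema6b* had a fitted log2 value of 0.05 (standard error 0.10), a sign that turned without vehicle replicate 1 (-0.02).

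Several semaphorins depended on single libraries. *Sema3e*, the secreted ligand of *Plxnd1*, had 27.8, 22.1, 28.2 and 31.01 CPM with CNO and 15.1, 20.3, 28.4 and 27.5 CPM with vehicle. Vehicle replicate 1 was the lowest of the 8 samples, and the log2 fold change of 0.26 became 0.10 without it. *Sema4g* had 5.53, 3.55, 4.13 and 5.47 CPM with CNO and 1.92, 4.42, 4.07 and 4.22 CPM with vehicle. Its log2 fold change of 0.35 became 0.13 without vehicle replicate 1. *Sema7a*, anchored to the membrane by a lipid, had 28.7 CPM in CNO replicate 1 and 11.2 to 14.5 CPM in the other CNO samples, beside 8.36, 19.9, 13.4 and 12.6 CPM with vehicle. Its log2 fold change of 0.30 turned to -0.10 without CNO replicate 1. *Sema3g*, at 0.671 to 2.42 CPM over the 8 samples, ranged from -0.45 to 0.22 with each sample left out in turn.

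Robo receptors bind Slits, secreted proteins that repel axons. *Robo2*, on chromosome 16 from 73891839 to 74411825, had 54.3, 61.7, 60.1 and 63.0 CPM with CNO and 73.3, 66.6, 65.6 and 68.9 CPM with vehicle. Every CNO sample lay below every vehicle sample. The means were 59.8 ± 3.85 and 68.6 ± 3.47 CPM (SD, n = 4). The log2 fold change was -0.20 (standard error 0.09; edgeR, unadjusted p = 0.0412, adjusted p = 0.817). Two-sided exact permutation gave p = 0.0286, a value fixed by the separation of the groups, which 1.63% of all genes tested had with CNO lower. Without vehicle replicate 1 the log2 fold change was -0.17 (edgeR, unadjusted p = 0.0813), with the groups still apart. With the marker index it was -0.16 (edgeR, unadjusted p = 0.0575). *Robo1*, *Robo3* and *Robo4* had fitted values of 0.04, 0.11 and 0.21, and no difference between these and *Robo2* was tested. The 3 Slits had fitted values from -0.20 for *Slit1* to -0.07 for *Slit2*, and *Slit3*, whose vehicle level of 20.4 ± 6.06 TPM was within a SD of that of *Slit2*, had 16.0 to 23.1 CPM with CNO and 16.4 to 24.3 CPM with vehicle.

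Of the netrin receptors, *Unc5a* was nearly even between the groups, with 62.4 to 70.8 CPM with CNO and 60.3 to 66.6 CPM with vehicle. Its fitted log2 difference was 0.03 (standard error 0.08, 95% interval -0.15 to 0.22). *Dcc*, which mediates attraction to netrin-1, had 6.85, 8.09, 6.32 and 4.46 CPM with CNO and 10.96, 7.88, 7.04 and 7.28 CPM with vehicle. The groups overlapped, and the log2 fold change of -0.37 (standard error 0.20; edgeR, unadjusted p = 0.0951) was -0.21 without vehicle replicate 1 and -0.09 with the marker index. *Unc5c* was likewise highest in vehicle replicate 1, at 29.4 CPM against 16.8 to 19.9 CPM in the other vehicle samples.

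Among the ligands, *Ntn4* was the highest netrin, with 27.4, 24.3, 30.6 and 33.7 CPM with CNO and 13.9, 25.5, 27.7 and 25.9 CPM with vehicle. Vehicle replicate 1 was far below the 7 other samples, and the log2 fold change of 0.32 (standard error 0.19) became 0.13 without it and 0.03 with the marker index. *Ntn1*, the classical netrin, was at 0.996 to 2.22 CPM over the 8 samples. The lipid-anchored netrin-G *Ntng1* had a fitted log2 difference of -0.15 (standard error 0.11) and *Ntng2* one of -0.03. In *Ntn5* and *Ntng2*, 20.5% and 11.7% of the 31-base stretches are shared with other genes. *Plxna4os1* had 0.189 to 0.257 CPM with CNO and 0.187 to 0.470 CPM with vehicle, and its log2 fold change of -0.56 had an unadjusted p of 0.141 in edgeR.

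**Figure D3:**
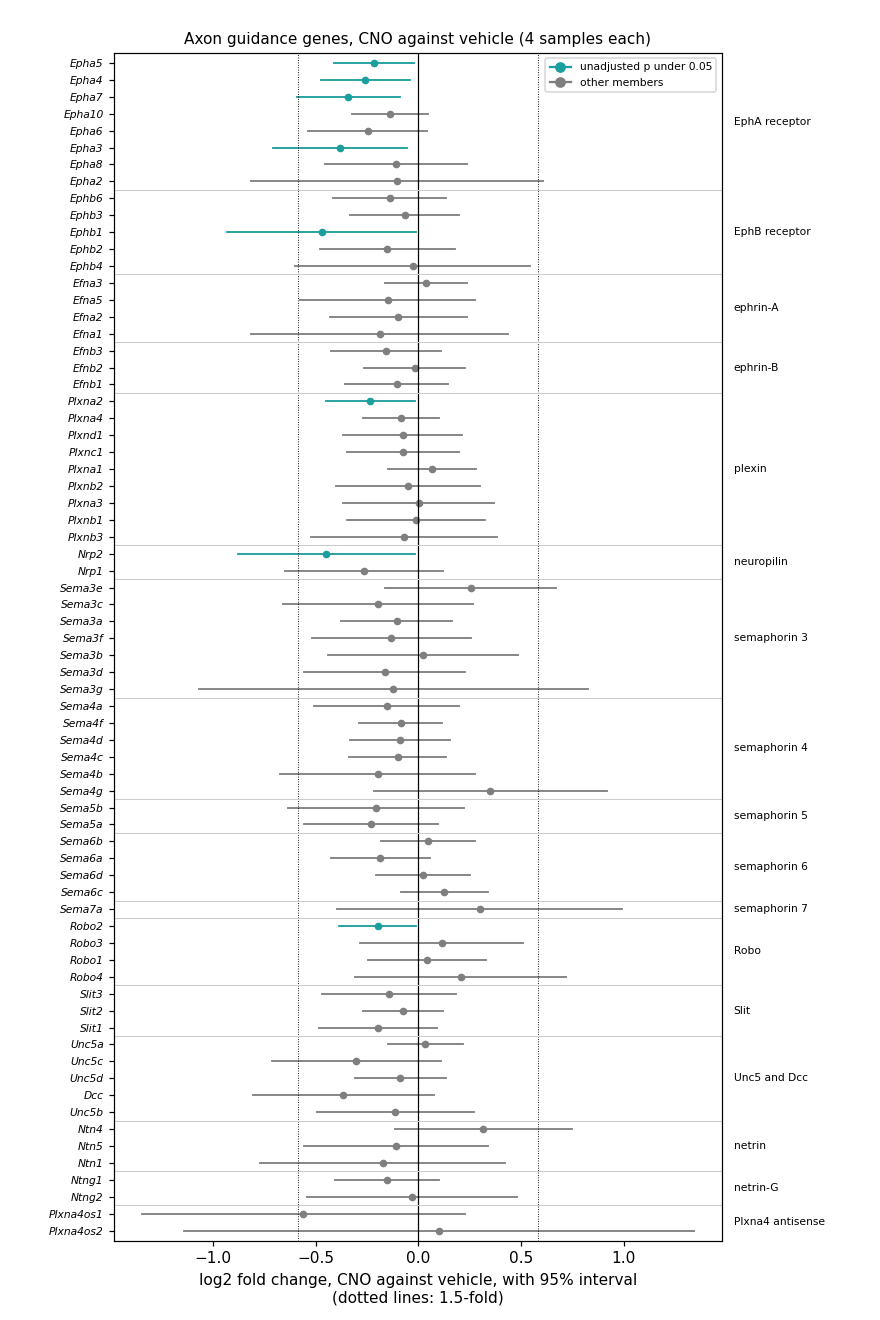
Log2 fold change of CNO against vehicle (horizontal axis, point) with its 95% interval (line) for the 70 guidance genes by family, from edgeR. The 8 genes at an unadjusted p under 0.05 are coloured and lie below 0, and the dotted lines mark a 1.5-fold change, which no point passes.

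The spread between samples of a group was also visible across the guidance genes together. The summed level of the 70 was 749, 926, 794 and 691 TPM in CNO replicates 1 to 4 and 997, 862, 839 and 871 TPM in vehicle replicates 1 to 4. CNO replicate 2 exceeded 3 of the vehicle samples. These sums also include the shift of TPM values over all genes given with the EphA sums. The median deviation of a gene from its mean over the 8 samples was 0.13 in vehicle replicate 1, -0.16 in CNO replicate 4 and -0.14 in CNO replicate 1, on the log2 CPM scale, while over all genes it lay between -0.0127 and 0.0346. Vehicle replicate 1 was above all other vehicle samples in 33 of the 70 genes and below all of them in 10.

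**Figure D4:**
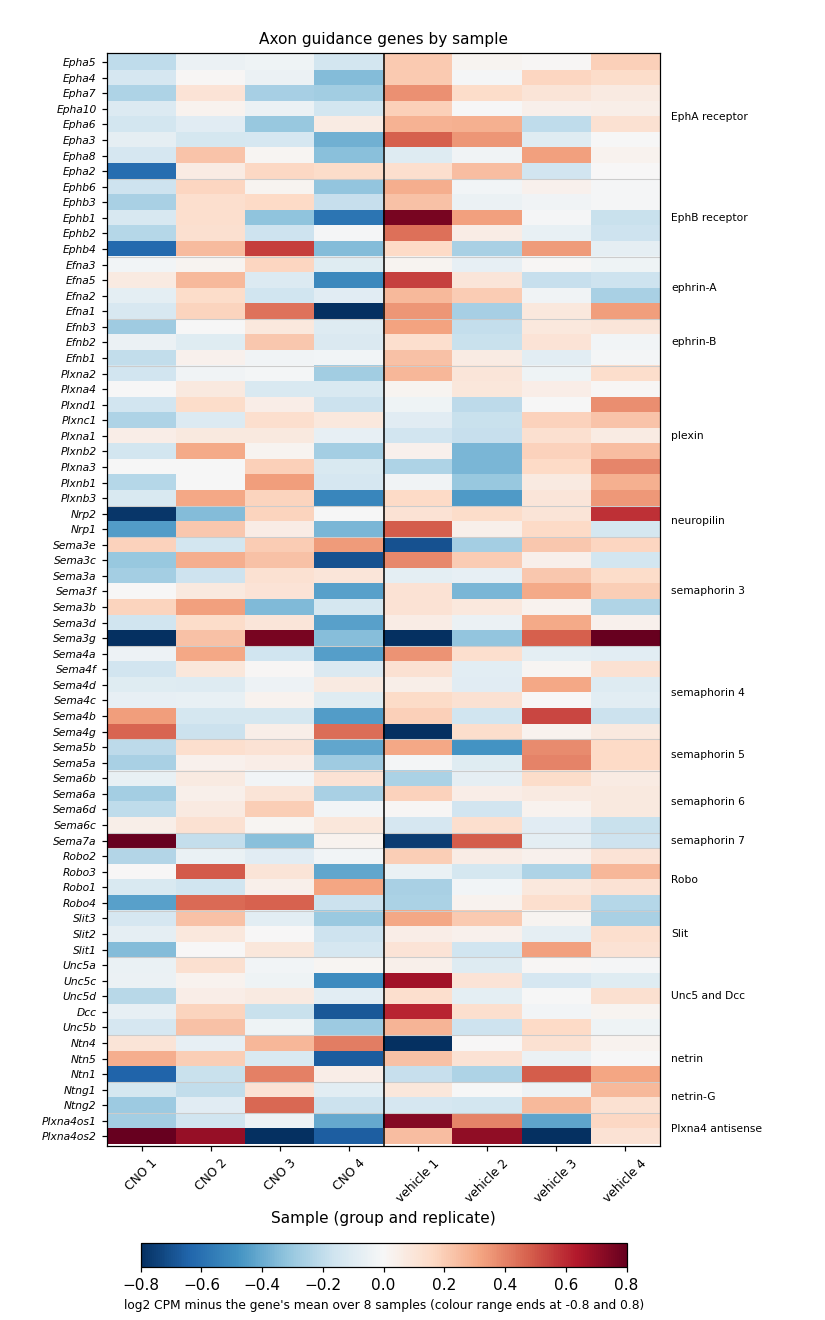
Deviation of each guidance gene from its own mean over the 8 samples (colour, log2 CPM, red above and blue below), with CNO replicates 1 to 4 on the left and vehicle replicates 1 to 4 on the right. Vehicle replicate 1 is red for most EphA and EphB receptors and blue for Ntn4, Sema4g, Sema7a and Sema3e.

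Without vehicle replicate 1, 53 of the 70 genes had a fitted value below 0, and 45 had one with the marker index in the model. At an unadjusted p under 0.05 there were 3 in each of these fits, namely *Epha4*, *Epha7* and *Nrp2*, in place of 8. Over all genes tested the share lower at that p also went down, from 2.65% to 1.31% without vehicle replicate 1 and to 2.02% with the marker index. The count of guidance genes was 2 without CNO replicate 1 (1.70% of all genes lower), 3 without CNO replicate 4 (1.06%), 5 without vehicle replicate 2 (2.15%) and 4 without vehicle replicate 4 (2.84%). In the first 3 of these 4 fits the share over all genes went down as well.

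**Figure D5:**
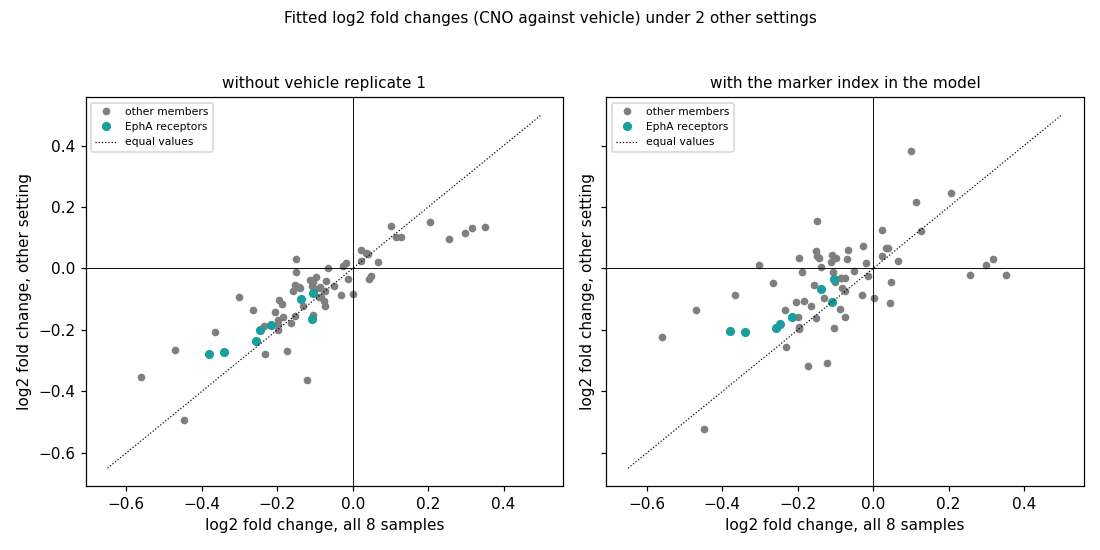
Fitted log2 fold change of each guidance gene without vehicle replicate 1 (left) and with the marker index in the model (right) against the value from all 8 samples (horizontal axes). The 8 EphA receptors (coloured) lie below 0 in both, and the dotted line marks equal values.

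Guidance genes have long gene bodies, with a median span of 57.5 kb against 20.2 kb over all tested genes with a known position. Of the 33 guidance genes longer than 100 kb, 29 had a fitted value below 0, with a median of -0.18. Of all 2360 tested genes longer than 100 kb, 60.0% were below 0, with a median of -0.05. At or under 100 kb, 25 of 37 guidance genes were below 0 (median -0.07), against 48.0% of 15025 genes (median 0.01). The part of gene length in the difference was not tested.

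Guidance receptors act through cytoplasmic and co-receptor partners, and 88 such genes, from regulators of the cytoskeleton to kinases and cell adhesion molecules, were examined for comparison. Of the 85 tested, 40 were below 0 and 45 above, with a median log2 fold change of 0.02. None passed the adjusted threshold in edgeR (0 of 85, and 0 with the robust dispersion). At an unadjusted p under 0.05 there were 4 of 85 (4.71%), close to the 4.09% of all genes tested, so the count is not a result about these partners. The 3 lower (3.53%, against 2.65% of all genes) were *Neo1*, *Ext1* and *Vav3*, and the 1 higher (1.18%, against 1.44%) was *Rnd2*, described here as values only. *Neo1*, neogenin, a receptor of netrins and repulsive guidance molecules, had 26.5, 27.8, 30.6 and 23.9 CPM with CNO and 39.4, 33.2, 34.0 and 29.8 CPM with vehicle. CNO replicate 3 overlapped with vehicle replicate 4, and the log2 fold change was -0.33 (standard error 0.11; edgeR, unadjusted p = 0.0138), or -0.21 with the marker index. *Ext1*, an enzyme of heparan sulphate synthesis, had 36.7, 41.4, 43.6 and 35.2 CPM with CNO and 52.4, 44.9, 43.7 and 47.8 CPM with vehicle. The groups did not overlap, although CNO replicate 3 and vehicle replicate 3 were almost level. *Vav3*, a signalling protein that acts downstream of receptor tyrosine kinases, differed by -0.42 on the log2 scale (standard error 0.19), by -0.32 without vehicle replicate 1 and by -0.22 with the marker index. *Rnd2* differed by 0.52 (standard error 0.23), and by 0.14 with the marker index.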

How the data were processed

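Ribosome-associated RNA of 4 CNO and 4 vehicle samples was analysed. Libraries were made with the SMARTer Ultra Low RNA kit, for which strand is not stated. Per the submitters' processing notes and the study's methods, reads were handled with FastQC and Trim Galore, aligned to GRCm38 with STAR and quantified with Salmon and tximport. The authors deposited estimated counts per gene without normalisation, of which 17% of values were not whole, and TPM values. The former were rounded, genes with 10 or more counts in at least 5 samples were kept, and edgeR 4.0.16 (R 4.3.3) was used with TMM and the quasi-likelihood test, and p-values were adjusted by Benjamini-Hochberg over all 17495 genes. Log2 CPM of single samples used a prior count of 2. Two-sided exact permutation ran over the 70 assignments. Alternatives were edgeR's likelihood ratio test on robust dispersions, DESeq2 1.42.0, other scalings and filters, limma 3.58.1 on log2 TPM plus 1 or 0.1, a replicate block, the marker index, and samples left out. Gene positions came from GENCODE M21 on GRCm38, promoters from RefSeq. The genes and lists were chosen with earlier results of these data known. Named genes were those at an unadjusted p under 0.05 or with separate groups, the highest of each family, the 5 with the largest change and the 5 with the largest deviation of vehicle replicate 1, and the partner genes at an unadjusted p under 0.05. Others named complete a family or were chosen after their values were seen. Plots were drawn with matplotlib 3.10.9.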

Additional observations from a re-analysis of the deposited data

Results flagged for a closer look

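Of 52 groups of 4 samples examined for a sample far from the other 3, 5 held one. The groups were those of the guidance genes named by the selection rules and of *Fos* and *Pvalb*. Some of these genes, *Ntn4* and *Sema4g* among them, met the rule on the largest deviation of vehicle replicate 1. The rate of about 1 in 20 that chance gives in unselected groups therefore cannot be set against this count. *Epha7* in CNO replicate 2 was at 5.66 log2 CPM, above the 5.27 to 5.30 of the other CNO samples, a gap of 0.925 of the whole range. *Nrp2* in vehicle replicate 4 was at 4.46 log2 CPM, above the 3.98 to 4.03 of the other vehicle samples (0.909). The remaining 3 were low in vehicle replicate 1: *Ntn4* at 3.80 log2 CPM beside 4.68 to 4.79 (0.881), *Sema4g* at 0.97 beside 2.04 to 2.16 (0.901) and *Pvalb* at 6.64 beside 8.36 to 8.61 (0.875).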

How the results depend on the processing

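In every alternative, 0 guidance genes and 0 partner genes were called. The count of 54 genes below 0 ranged from 47 to 57 when samples were left out singly, the median of -0.11 from -0.17 to -0.07, and the median was -0.04 with the marker index, -0.0403 without CNO replicate 4 and vehicle replicate 1 and -0.0505 without both samples numbered 1. In these 3 settings 45, 42 and 45 genes were below 0, and the median over all genes tested was -0.0158, -0.0073 and -0.0011. Leaving out single samples moved the 8 EphA receptors below 0 to between 7 and 8. The 8 genes at an unadjusted p under 0.05 ranged from 2 to 9 with each sample left out, where 1.06% to 5.29% of all genes were lower at that p. They were 5 with no filter on low counts (2.33% of all genes lower), 3 with the marker index (2.02%), 0 without both samples numbered 1 (0.823%) and 1 without CNO replicate 4 and vehicle replicate 1 (1.01%). The 4 EphA receptors among them ranged from 1 to 4 with each sample left out, and were 2 with the marker index and 0 in both of the last 2 settings. With a replicate block, 4 genes and 2 EphA receptors reached an unadjusted p under 0.05 (3.04% of all genes lower), and no call changed. Same-numbered samples correlated at 0.0263, -0.0302, 0.161 and 0.239, and not every sample correlated best with its own number. The highest value, 0.431, was between CNO replicate 2 and vehicle replicate 1, each the lowest of its group in the marker index. Such correlations also carry differences in cell type markers, so they cannot decide whether same-numbered pools shared a litter or day. The EphA median was -0.35 with limma on log2(TPM + 0.1). Of the 10 highest genes by TPM, 5 remained among the 10 highest by counts per kilobase of exon. The median log2 fold change over all genes tested also moved with some settings. It was 0.0014 in the main fit, -0.0510 with library size only, and -0.0626 and -0.0773 with limma on log2(TPM + 1) and log2(TPM + 0.1). The changes in guidance genes under these settings therefore include a shift seen over all genes. The cause of the other changes was not tested. Signs turned in guidance genes outside the 24 named by the selection rules, such as *Efna5* (0.15) and *Robo1* (-0.11) with the marker index. Among the 24 only, the sign of the fitted log2 fold change turned as follows. With library size only it was -0.0132 for *Efna3*, -0.0028 for *Sema6b* and -0.0162 for *Unc5a*. With limma on log2(TPM + 1) and log2(TPM + 0.1) it was -0.0154 and -0.0157 for *Sema6b* and -0.0318 and -0.0326 for *Unc5a*. With the marker index it was 0.0061 for *Ephb6*, -0.0206 for *Sema3e*, 0.0577 for *Sema4a*, -0.0208 for *Sema4g*, -0.0428 for *Sema6b* and 0.0332 for *Slit3*. Without CNO replicate 4 and vehicle replicate 1 it was 0.0137 for *Ephb6*, 0.0561 for *Sema4a*, -0.0529 for *Sema6b* and 0.0127 for *Slit3*, and without both samples numbered 1 it was -0.26 for *Sema7a*. With each sample left out, *Efna3* ranged from -0.0140 to 0.0679, *Sema3g* from -0.45 to 0.22, *Sema6b* from -0.0250 to 0.11, *Sema7a* from -0.10 to 0.53 and *Unc5a* from -0.0051 to 0.0582. At this depth and with 4 pools per group, even differences somewhat above 1.5-fold could be missed in genes near the floor. *Epha2* (standard error 0.32) had a 95% interval from -0.82 to 0.61 on the log2 scale, beyond 1.5-fold in both directions. The limit was not confined to such genes. *Sema7a*, at 8.36 to 28.7 CPM, also had a standard error of 0.32. *Fos*, with a log2 fold change of 1.93, had an adjusted p of 0.0520 in edgeR's quasi-likelihood test.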
